A study of Mus musculus with 13 samples.

Results

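The 10 genes described here, Nkx6-1, Nkx2-1, Sox2, Cabp1, Ankrd2, Ankrd63, Ube2ql1, Ptchd1, Xpnpep2 and Olfr1243, are known mainly from tissues other than the small intestinal crypt and carried many reads in libraries of Paneth cells and few in libraries of intestinal stem cells. They were picked by name from 35791 measured genes for that contrast, so the difference between the cell types chose them and is given as a description without a test. All 10 were found by symbol in each of the 13 libraries. The libraries hold RNA of 4 samples of young Paneth cells, 3 of aged Paneth cells, 3 of young stem cells and 3 of aged stem cells. The young mice were 2 to 3 months old and the aged mice 20 to 22 months old. Every library is labelled as coming from male Lgr5-eGFP-IRES-CreERT2 reporter mice of C57Bl6/SV129 background, and the cells from crypts of the proximal small intestine from which villi had been removed. This allele drives a green fluorescent protein and a tamoxifen-inducible Cre recombinase from the locus of the stem cell gene Lgr5; the labels name no Cre target and no treatment. The labels do not say that replicates came from separate mice, and p-values therefore measure only how far these samples spread, part of which may be technical. The Paneth libraries were prepared with the SMARTer Pico kit of Clontech and the stem cell libraries by standard Illumina methods, and the effects of kit and of cell type cannot be told apart.

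Paneth cells sit at the base of the crypt among the Lgr5-positive stem cells and secrete lysozyme and defensins from large granules. Their identity is set by Wnt signalling and Sox9, and they arise from the secretory lineage that also gives goblet, enteroendocrine and tuft cells. Nkx6-1 is a homeodomain factor of pancreatic beta cells and ventral neural tube, Nkx2-1 the homeodomain factor of lung, thyroid and ventral forebrain, and Sox2 a factor of neural progenitors, oesophagus and stomach. Xpnpep2, a membrane-bound aminopeptidase that removes residues in front of proline, is known from kidney and intestinal brush borders and is the one of these genes with a well-known place in gut epithelium.

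Library totals ran from 4210439 to 8612228 reads in Paneth libraries and from 8398966 to 19740104 in stem cell libraries. Between 26.7% and 66.2% of the reads of a Paneth library lay on 3 loci, Esp38, Lars2 and Gm20594, against 4.03% to 10.3% in stem cell libraries. The defining markers were present in their own libraries: Lyz1 averaged 14651 CPM in young Paneth, 4893 in aged Paneth and at most 594 CPM in a stem cell group, and Olfm4 averaged 3136 CPM in young stem and 699.7 CPM in young Paneth libraries. The Paneth libraries also carried markers of absorptive enterocytes, whose 20 genes summed to between 2591 and 49084 CPM there and to at most 1365 CPM in stem cell libraries, with no gene of the list at 0. The 12 enteroendocrine markers summed to between 780.0 and 6976 CPM in Paneth and to between 131 and 727 CPM in stem cell libraries. Sex-linked genes went against the label in 12 of the 13 libraries, where Xist ran from 322 to 2880.1 CPM and 4 Y-linked genes together from 7.9 to 16.5 CPM. Young stem 1 alone had 12.7 CPM of Xist and 161 CPM of the Y-linked genes. CPM, the library-scaled read count, was computed with TMM factors (trimmed mean of M values, a correction for libraries dominated by a few genes) over all 13 libraries.

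The 3 transcription factors were each read in every Paneth library. Nkx6-1 had 445, 756, 239.5 and 705 CPM in young Paneth libraries 1 to 4 and 675, 192 and 288 CPM in aged Paneth libraries 1 to 3. In the 6 stem cell libraries it lay between 0.0681 and 0.891 CPM, from 1.5 to 10 reads a library. Young and aged Paneth libraries overlapped, and the lowest Paneth library stood 215 times above the highest stem cell library. Sox2 had 206, 439, 129.99 and 256 CPM in young Paneth libraries 1 to 4 and 164, 73.7 and 95.7 CPM in aged Paneth libraries 1 to 3. Young Paneth 2 was the highest and aged Paneth 2 the lowest, 5.96 times apart (2.45 times by library totals). Sox2 in stem cell libraries lay between 0.178 and 0.823 CPM. Nkx2-1 was the faintest of the factors, with 26.9, 31.1, 33.0 and 39.9 CPM in young Paneth libraries 1 to 4 and 31.2, 37.1 and 46.8 CPM in aged Paneth libraries 1 to 3. It spanned 1.74 times between the lowest and the highest Paneth library, the narrowest of the 10 genes with TMM scaling, but 3.49 times by library totals, where Cabp1 was narrowest at 1.64 times. It was highest in aged Paneth 3. Its stem cell libraries held 7 to 36 reads each (0.624 to 1.42 CPM), so that its mean in Paneth was 39.5 times its mean in stem, the smallest ratio of the 10.

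Among the genes known from nerve and muscle, Cabp1, a calcium-binding protein of neurons, had 227, 411, 235 and 403 CPM in young Paneth libraries 1 to 4 and 311, 159.7 and 247 CPM in aged Paneth libraries 1 to 3. It had 1 to 13 reads in each stem cell library, and young and aged Paneth libraries overlapped. Ankrd2, an ankyrin-repeat protein of striated muscle, had 117, 342, 84.6 and 177 CPM in the young and 124, 38.2 and 55.9 CPM in the aged Paneth libraries. No stem cell library held more than 6 reads of Ankrd2, and young stem 2 held 0. Ankrd63, an ankyrin-repeat gene with a single exon, varied most, with 478, 3844, 739.9 and 1345 CPM in young Paneth libraries 1 to 4 and 1015, 199 and 328 CPM in aged Paneth libraries 1 to 3. Young Paneth 2 was 19.3 times aged Paneth 2 for this gene (7.91 times by library totals). Its stem cell libraries lay between 0.520 and 2.05 CPM. Ube2ql1, a relative of ubiquitin-conjugating enzymes, had 318, 647, 283 and 502 CPM in the young and 419, 148 and 231 CPM in the aged Paneth libraries. Its 6 stem cell libraries lay between 0.306 and 0.535 CPM.

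The 3 remaining genes encode membrane proteins. Ptchd1, a patched-domain protein studied in neurodevelopment, had 549.9, 1159, 418 and 634 CPM in young Paneth libraries 1 to 4 and 438, 196 and 266 CPM in aged Paneth libraries 1 to 3, against 1.31 to 2.37 CPM in stem. Xpnpep2 was the most abundant, with 4008, 9041, 2977 and 3991 CPM in the young and 2330.2, 1228 and 1668 CPM in the aged Paneth libraries. It was also the member with most reads in stem cell libraries, 111 to 171 each (4.51 to 9.89 CPM). All 3 aged Paneth libraries lay below all 4 young ones for Xpnpep2, and for no other of the 10 genes. Olfr1243, an olfactory receptor, had 61.5, 127, 44.9 and 73.2 CPM in the young and 48.1, 24.5 and 30.1 CPM in the aged Paneth libraries. Its 6 stem cell libraries held 9 reads in all, and 2 of them held 0. Reads of all 10 genes were thus present in stem cell libraries, and they were not confined to Paneth libraries in the strict sense.

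**Figure D1:**
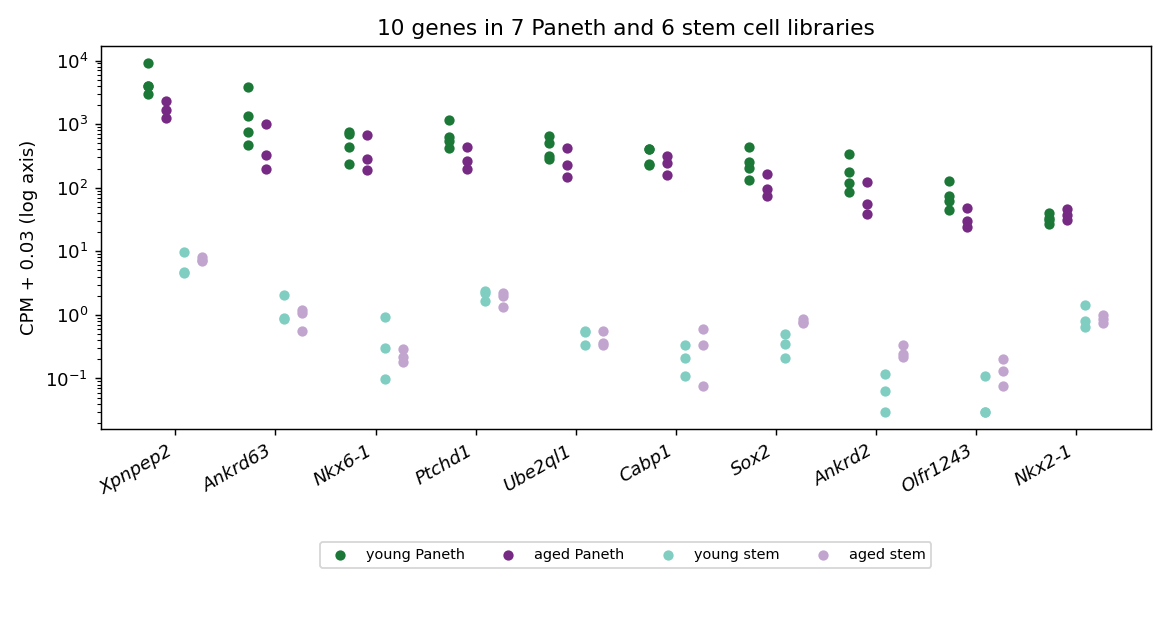
CPM of the 10 genes in each library on a log axis, with 0.03 added so that libraries with 0 reads can be drawn; each point is a library and the colours are the 4 groups. Every Paneth library lies above every stem cell library, and Nkx2-1 spans 26.9 to 46.8 CPM in Paneth libraries on this TMM scale (by library totals it is not the narrowest).

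Of 11434 genes with a mean of at least 5 CPM over the 7 Paneth libraries, 57 had a Paneth mean at least 100 times the stem mean, and 9 of the 10 genes were among them. By this ratio Nkx6-1 ranked 3, Cabp1 4, Ankrd63 5, Ankrd2 6, Olfr1243 7 and Ube2ql1 8, while Nkx2-1 ranked 138. The other 48 genes past 100 included Gsc, the goosecoid homeodomain factor (96.2 CPM in Paneth, 0.198 in stem), the zinc finger factor Zic5 (148 and 0.463 CPM), and Lars2 itself. They also included Apoa4, an apolipoprotein of enterocytes, with 4919 CPM in Paneth and 12.3 in stem. All 10 genes passed at adjusted p under 0.05 as higher in Paneth at each age in edgeR's quasi-likelihood test, where 19.6% of 16960 genes did in young and 20.4% in aged mice; since this contrast chose them, nothing is read from that count. Without young stem 1 the ratio of the means ran from 37.2 (Nkx2-1) to 2492 (Nkx6-1); for Nkx6-1 it was 1539.9 with that library, a move of over 1.5 times. Fewer cells of a type and less RNA per cell cannot be told apart in such bulk samples.

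Per kilobase of transcript, the order of the mean levels over the 7 Paneth libraries was Xpnpep2 (1031 CPM per kb), Ankrd63 (234), Ptchd1 (189), Cabp1 (176), Nkx6-1 (150.2), Ube2ql1 (136), Ankrd2 (118), Sox2 (94.8), Olfr1243 (18.6) and Nkx2-1 (12.5). Each neighbouring pair in this order had overlapping ranges over the libraries. Sox2 ran from 35.8 to 213 and Olfr1243 from 7.78 to 40.3 CPM per kb. The length of Olfr1243 is that of a GENCODE transcript of 3148 bases, while its RefSeq interval spans only its 918-base coding part.

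The genes lie on 7 chromosomes of mm10 (GRCm38). Nkx6-1 is at chromosome 5:101659184-101664711 and Cabp1 at 5:115168691-115194381, both on the minus strand. Ankrd63 is at 2:118699103-118703963 and Olfr1243 at 2:89527491-89528408, minus strand, and Sox2 at 3:34649995-34652461, plus strand. Nkx2-1 is at 12:56531935-56536908 and Ube2ql1 at 13:69702832-69739897, minus strand. Ankrd2 is at 19:42035917-42045111, plus strand. Xpnpep2 (X:48106913-48136982, plus strand) and Ptchd1 (X:155569736-155624170, minus strand) are X-linked. Neighbouring or overlapping genes were measured for 8 of the 10; for Nkx6-1 and Ube2ql1 none was, and for Ptchd1 only a pseudogene 64792 bases away. Of these 13 genes none averaged above 20.6 CPM in Paneth libraries, and 12 lay more than 10 times below their member. Pak6, a kinase gene 1082 bases from Ankrd63, averaged 12.1 CPM beside 1136 for Ankrd63, and Plcb2 on its other side 4.70 CPM. Hoga1, 447 bases from Ankrd2, averaged 5.11 CPM. Sox2 lies inside Sox2ot, a long noncoding gene on the same strand, which averaged 20.6 CPM in Paneth and 9.79 CPM in stem. Across the Paneth libraries Sox2ot ran opposite to Sox2 (r = -0.63 over 7 libraries, a description). Overlapping genes of this kind can exchange reads in counting, and the counting rule is not given in the sources used here.

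Olfr1243 has a close relative nearby that was not read in the same way. Olfr1242, 33144 bases away, shares 93.0% of 912 aligned bases, yet it averaged 0.143 reads in Paneth libraries while Olfr1243 held 138 to 352. Olfr1242 averaged 3.75 reads in stem cell libraries, and 3.29% of the 50-base stretches of Olfr1243 recur in Olfr1242 or Olfr1252. The deposited values of Olfr1243, Cabp1 and Ankrd2 were whole numbers in every library. By contrast, all 7 Paneth values of Nkx2-1 and 6 of 7 of Ptchd1 were not whole, the form that reads split between genes give. Paneth values that were not whole also occurred for Nkx6-1 (4 of 7), Ankrd63 (3 of 7), Sox2 (2 of 7) and Xpnpep2 (2 of 7). Over all genes 50.9% of values above 0 were not whole. The share was 69.3% for genes in a band of Paneth read numbers that holds Nkx2-1 and Ptchd1. For Nkx2-1, 2.72% of its 50-base stretches recur in 107 other genes, and for Ptchd1 5.55% recur in Gm15156. The levels of both are therefore uncertain, to an extent that these shares do not measure. The other 7 genes share no 50-base stretch of their longest transcript with another gene. Nkx6-1, Ankrd63, Sox2 and Xpnpep2 are among them, and the source of their values that were not whole was not tested.

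Some structural features recurred among the 10. Their transcripts had a median GC content of 57.0% against 49.1% over 20147 protein-coding genes, from 32.4% in Olfr1243 to 68.2% in Cabp1. At most 3 exons were found in 7 of the 10, against 24.5% of all genes; Sox2 and Ankrd63 have a single exon, and Xpnpep2 has 21. These are descriptions of a chosen list without a test.

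Promoters are shown for 3 genes that moved together across the Paneth libraries (Sox2, Ankrd63 and Xpnpep2, below) and for Nkx2-1, which did not. Each is the stretch of 250 bases before the RefSeq start in GRCm38.p6, on the gene's own strand, and none overlaps a GENCODE exon: Sox2 at chr3:34649745-34649994, Ankrd63 at chr2:118703964-118704213, Xpnpep2 at chrX:48108475-48108724 (inside the annotated span of the gene) and Nkx2-1 at chr12:56536909-56537158. Capitals mark matches on either strand to 5 motifs: the TATA box (TATAAA), a site of TCF factors (CTTTGAT), a CDX-like site (TTTATG), the CCAAT box and the GC box (GGGCGG). No 2 of the matches shown overlap.
Sox2: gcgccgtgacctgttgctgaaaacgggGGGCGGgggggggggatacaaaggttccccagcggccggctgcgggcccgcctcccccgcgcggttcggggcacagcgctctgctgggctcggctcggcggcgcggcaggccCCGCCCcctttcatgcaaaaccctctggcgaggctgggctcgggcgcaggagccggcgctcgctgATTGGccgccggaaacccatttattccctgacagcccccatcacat
Ankrd63: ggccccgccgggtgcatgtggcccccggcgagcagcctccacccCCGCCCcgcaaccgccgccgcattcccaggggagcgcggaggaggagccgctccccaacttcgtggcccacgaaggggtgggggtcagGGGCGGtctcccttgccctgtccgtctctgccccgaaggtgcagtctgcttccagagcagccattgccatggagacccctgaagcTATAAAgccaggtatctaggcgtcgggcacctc
Xpnpep2: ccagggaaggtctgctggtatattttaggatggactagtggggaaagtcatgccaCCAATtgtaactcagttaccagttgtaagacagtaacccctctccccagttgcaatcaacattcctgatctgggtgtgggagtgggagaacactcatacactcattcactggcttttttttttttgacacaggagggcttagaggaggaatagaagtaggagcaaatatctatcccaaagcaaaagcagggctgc
Nkx2-1: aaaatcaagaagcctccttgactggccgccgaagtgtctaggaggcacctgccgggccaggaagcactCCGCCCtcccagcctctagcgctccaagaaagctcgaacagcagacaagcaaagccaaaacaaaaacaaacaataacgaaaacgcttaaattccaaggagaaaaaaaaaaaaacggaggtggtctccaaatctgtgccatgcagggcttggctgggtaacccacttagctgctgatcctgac
The stretches of Sox2 and Ankrd63 are rich in G and C (their GC content is above that of 93.5% and 91.2% of all promoters) and each holds 2 matches to GGGCGG, the GC box, which 32.9% of 27025 mouse promoters hold. Ankrd63 also has TATAAA, the TATA box, as 12.97% of promoters do, and Sox2 a CCAAT box, as 34.5% do. Xpnpep2 differs: it has 46.0% GC, no CpG dinucleotide and 1 CCAAT match. Nkx2-1 has 50.8% GC, 9 CpG dinucleotides and 1 GC box. None of the 4 holds CTTTGAT, the letters bound by TCF factors of the Wnt pathway, which 3.23% of promoters hold, or TTTATG, a CDX-like sequence that 11.1% hold. No single motif among the 5 is thus shared by all 4 stretches.

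Whether the genes followed Paneth markers, enterocyte markers or the reads on the 3 dominant loci was examined across the 7 Paneth libraries. The 3 measures move with each other: the mean log2 level of 24 Paneth markers had r = -0.87 with that of 20 enterocyte markers, and the share of the 3 loci had r = 0.72 with the former and -0.82 with the latter. That share was 45.4%, 66.2%, 44.8% and 51.1% in young Paneth libraries 1 to 4 and 41.9%, 26.7% and 28.1% in aged Paneth libraries 1 to 3. Young Paneth 2 had the highest share and also the highest level of 9 of the 10 genes (6 by library totals), and aged Paneth 2 the lowest share and the lowest level of 9 (7 by library totals). Correlations of log2(CPM + 0.5) were tested with an exact two-sided permutation test over 5040 pairings, with Benjamini-Hochberg adjustment over 30 tests (10 genes by 3 measures); the smallest p it can give is 0.000397.

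With the share of the 3 loci, 7 of the 10 genes passed, all with positive r. Without aged Paneth 3 none passed (their adjusted p rose to between 0.0583 and 0.0952 over 6 libraries, exact permutation), and without young Paneth 2 there were 3. Ptchd1 had r = 0.98 (rho = 0.96, exact permutation p = 0.000397, adjusted p = 0.00595) and Olfr1243 r = 0.98 (rho = 0.96, exact adjusted p = 0.00595). Xpnpep2 had r = 0.98, Sox2 0.97, Ankrd2 0.97, Ankrd63 0.95 and Ube2ql1 0.91, with exact adjusted p from 0.00595 to 0.0315. By rank (exact adjusted p = 0.0208 for each), Sox2, Ptchd1, Xpnpep2 and Olfr1243 passed and the other 6 did not. Leaving out the libraries with the most distant shares, young Paneth 2 and aged Paneth 2, left r between 0.77 (Ube2ql1) and 0.96 (Ptchd1) for those 7 genes over 5 libraries. After the mean of each age group was subtracted, r for the 7 lay between 0.90 (Ube2ql1) and 0.97 (Ankrd63). Cabp1 (r = 0.80) and Nkx6-1 (r = 0.76) did not pass, with exact adjusted p of 0.0916 and 0.0999. Nkx2-1 had r = -0.50 (exact adjusted p = 0.285). Of 11434 genes, 2.34% had r of at least 0.9 with this share and the median r was -0.04.

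The scaling bears on these values. The TMM factors of the Paneth libraries ran from 0.412 to 1.00 and had r = -0.98 with the share of the 3 loci, so that scaling lifts every gene of a library such as young Paneth 2. With reads per library total in place of TMM, Sox2 (r = 0.91), Ankrd2 (0.91), Ankrd63 (0.88), Ptchd1 (0.94), Xpnpep2 (0.95) and Olfr1243 (0.95) still passed, the exact adjusted p being at most 0.0430. Ube2ql1 had r = 0.57, Nkx6-1 0.34 and Cabp1 -0.13, and these 3 did not pass. Nkx2-1 then passed in the opposite direction, r = -0.94 (exact adjusted p = 0.0298). The reads on the 3 loci are part of each library total, so a gene steady beside the other genes falls as their share rises. Nothing is therefore read from that negative r. The share of all genes with such r by library totals is not given here, for Nkx2-1 or for the genes that still passed.

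With marker levels no gene passed after adjustment, and none had r beyond 0.9 in size, where 3.70% of 11434 genes had r of at least 0.9 with Paneth markers and 2.48% of -0.9 or lower; with enterocyte markers these shares were 8.02% and 3.32%. With Paneth markers, r was 0.77 for Xpnpep2 (exact permutation p = 0.0371, adjusted p = 0.0916) and -0.80 for Nkx2-1 (adjusted p = 0.0916), and it lay between 0.34 (Cabp1) and 0.73 (Ptchd1) for the others. After the mean of each age group was subtracted, r with Paneth markers was 0.44 for Xpnpep2 and -0.77 for Nkx2-1. It then lay between 0.02 (Cabp1) and 0.40 (Ptchd1) for the others, and none passed. With enterocyte markers, 9 of 10 had negative r, from -0.46 (Nkx6-1) to -0.80 (Xpnpep2, exact adjusted p = 0.0916), and Nkx2-1 had r = 0.68. With the age means subtracted, r of these 9 lay between -0.31 (Cabp1) and -0.68 (Xpnpep2), and that of Nkx2-1 was 0.57. The size of r with enterocyte markers rested on few libraries: without aged Paneth 2 and young Paneth 2, r of Xpnpep2 was -0.30 and that of Sox2 -0.06. The sign turned for Cabp1 (0.40) and Nkx6-1 (0.20), while the other genes with negative r kept their sign, Ube2ql1 with -0.004. Leaving out young Paneth 4, which has few Paneth markers and many enterocyte markers beside a high share of the 3 loci, made 7 genes pass with enterocyte markers (exact permutation over 6 libraries), all with negative r; 5 of the 10 then had r of -0.9 or lower, as 6.02% of 11434 genes did. Xpnpep2, known from brush borders, was highest in young Paneth 2, where the brush-border peptidase Ace, which is not among the 20 markers, was lowest (129 CPM, against 3708 CPM in aged Paneth 3).

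**Figure D2:**
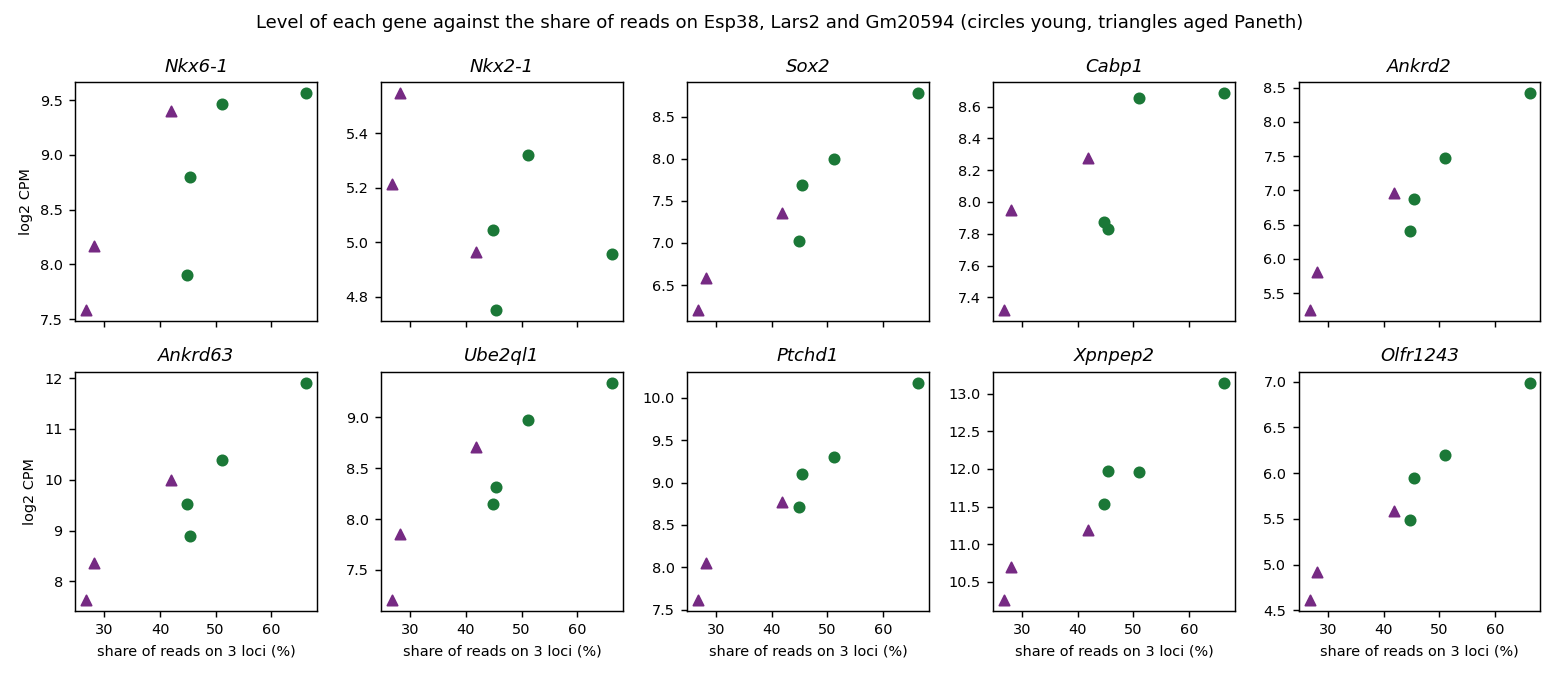
log2 CPM of each gene (vertical axis) against the percent of reads on Esp38, Lars2 and Gm20594 (horizontal axis) in the 7 Paneth libraries; circles are young and triangles aged. Points of Ptchd1, Xpnpep2 and Olfr1243 lie close to a line with r = 0.98, while Nkx2-1 falls with r = -0.50.

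**Figure D3:**
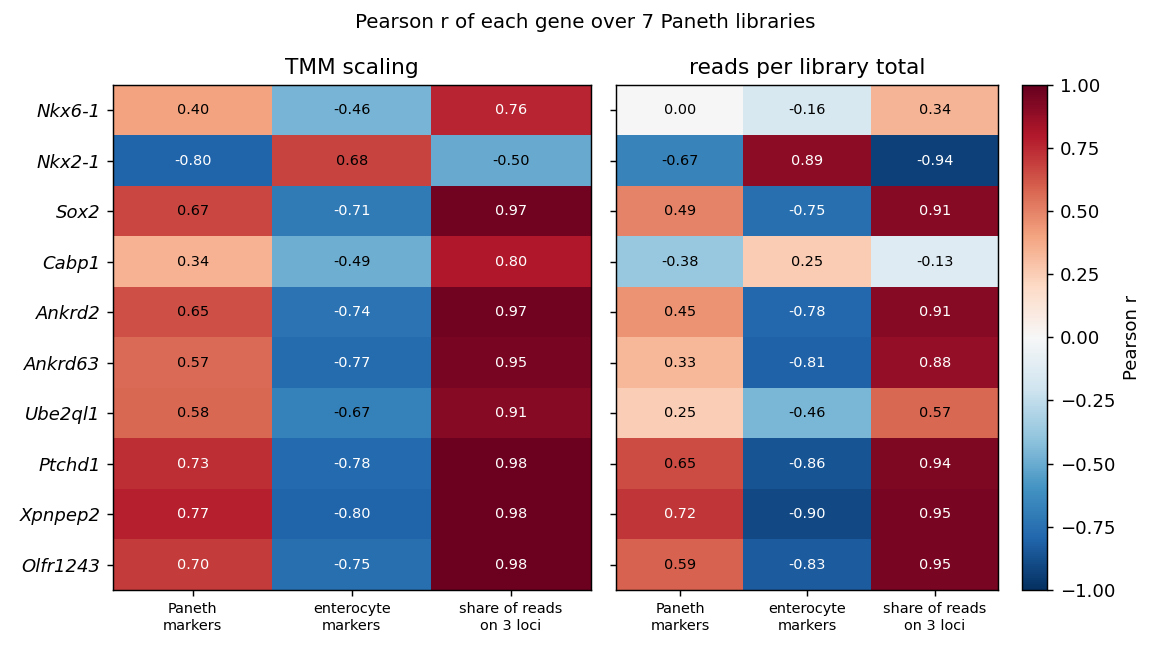
Pearson r over the 7 Paneth libraries of each gene with the level of Paneth markers, the level of enterocyte markers and the share of reads on the 3 loci, for TMM scaling (left) and for reads per library total (right); red is positive and blue negative. The column of the 3 loci holds the strongest values of each panel, but not of each gene. Paneth markers gave stronger r for Nkx2-1 at the left (-0.80) and for Cabp1 at the right (-0.38). The values of Cabp1, Nkx6-1, Ube2ql1 and Nkx2-1 differ between the panels, r of Nkx6-1 with the 3 loci being 0.76 at the left and 0.34 at the right.

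The genes also varied with each other. Over the 36 pairs that leave out Nkx2-1 the median r was 0.93, from 0.73 (Nkx6-1 and Xpnpep2) to 0.997 (Ptchd1 and Olfr1243). Sox2 and Olfr1243, a transcription factor and an olfactory receptor on different chromosomes, had r = 0.996 and still 0.995 after subtraction of the age means. Nkx2-1 had negative r with each of the other 9, from -0.04 with Cabp1 to -0.50 with Xpnpep2. By library totals the 15 pairs among Sox2, Ankrd2, Ankrd63, Ptchd1, Xpnpep2 and Olfr1243 kept r between 0.76 and 0.99, while Cabp1 had r between -0.21 and 0.28 with these 6, and Nkx2-1 between -0.92 and -0.72 with them and 0.36 with Cabp1. The 6 were singled out after their values were seen. These pairs share their libraries and scaling and are given without a p. Among genes of at least 5 CPM, the one most like Xpnpep2 was Pik3r6, a PI3-kinase subunit (r = 0.999; 110.2 CPM in Paneth and 1.19 in stem). Nkx2-2, a homeodomain factor of islet and enteroendocrine cells, followed Ptchd1 (r = 0.996; 295 and 2.40 CPM), and Bmp6 followed Sox2 (r = 0.996; 71.5 and 0.695 CPM). Rai14 was most like Nkx6-1 (r = 0.996, 59.9 CPM in Paneth and 26.7 in stem) and Olfr433 most like Cabp1 (r = 0.97, 17.2 and 0.0955 CPM). Oaf was most like Ankrd2 (r = 0.999, 112.9 and 9.84 CPM) and Pdgfb most like Ankrd63 (r = 0.99, 11.7 and 1.74 CPM). Vars2 was most like Ube2ql1 (r = 0.99, 60.9 and 61.8 CPM) and Mroh8 most like Olfr1243 (r = 0.998, 51.1 and 2.50 CPM). The gene most like Nkx2-1, Smug1, a DNA repair glycosylase (r = 0.96), was, like Vars2, about as high in stem as in Paneth, 20.2 and 22.4 CPM.

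Lists of genes from the tissues and families of the members differed in how many reached 5 CPM in Paneth libraries. Over all 35791 measured genes 11434 did, which is the background for these counts. Between the cell types, 19.6% of 16960 genes were higher in young Paneth and 20.4% in aged, and 3601 and 3619 genes were lower, as a background for the counts that follow. Reads in Paneth libraries alone could bring a gene into these comparisons, so the counts of genes higher in Paneth are descriptions only. Of 16 stomach, oesophagus and neural progenitor genes beside Sox2, 3 reached 5 CPM in Paneth libraries, led by Sox21 with 25.8 CPM and Pou3f2 with 23.6 CPM. The remaining gene was Sox2ot, which overlaps Sox2. Of 12 lung and thyroid genes 2 did, the surfactant gene Sftpa1 with 31.0 CPM (0.226 in stem) and Pax8 with 9.17 CPM; the surfactant gene Sftpb averaged 3.04 CPM. Of 12 striated muscle genes 2 did, Ttn and Acta1. In young libraries none of the 5 muscle genes tested passed between Paneth and stem; in aged libraries 2 were higher in Paneth, among them Acta1 (log2 difference 2.91, adjusted p = 0.00429 in edgeR's test). Of 13 islet and enteroendocrine factors 7 did: besides Nkx2-2, Neurod1 had 17.3 CPM, and 7 of the 13 were higher in young Paneth than in young stem and 5 in aged, with 2 lower in aged. Of 12 neuronal calcium sensors 4 reached 5 CPM, the highest being Ncald at 12.3 CPM beside 285 CPM for Cabp1. Of 9 patched-domain and Hedgehog genes 3 did, and Ptch1, the Hedgehog receptor, was lower in young Paneth than in young stem (17.9 and 39.8 CPM on average; log2 difference -1.16, adjusted p = 0.00522 in edgeR's test). All 6 ubiquitin-conjugating relatives of Ube2ql1 reached 5 CPM, led by Ube2q1 with 75.9 CPM, and 2 were higher and 1 lower in young Paneth. Of 12 neuron genes 6 reached 5 CPM, led by Stmn2 with 18.5 CPM. Of the 11 tested, 7 were higher and 1 lower in young Paneth than in young stem, and 7 and 0 in aged. Of 11 tested genes of the Sox2 list, 6 were higher in young Paneth and 5 in aged, with 0 lower. Of 8 tested calcium sensors, 4 were higher and 1 lower in young, and 5 and 0 in aged. Of 9 tested lung and thyroid genes, 2 were higher in young and 3 in aged, with 0 lower. Of 12 other brush-border peptidases 11 reached 5 CPM, and 6 were higher and 2 lower in young Paneth, 8 and 2 in aged. Anpep averaged 2470.2 CPM in Paneth and 98.1 in stem.

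Few other olfactory receptors averaged at least 5 CPM in Paneth libraries. Of 1425 receptors and receptor pseudogenes other than Olfr1243, 471 had no read in any Paneth library and 6 averaged at least 5 CPM, as 11434 of all 35791 genes did. The 2 highest, Olfr613 (128 CPM in Paneth, 115 in stem) and Olfr856-ps1 (44.1 and 39.1), had overlapping ranges in both cell types. Olfr354 (26.6 and 0.136 CPM) and Olfr1349 (19.6 and 0.110 CPM) had the pattern of Olfr1243. Of 33 receptors with enough reads to be compared, 13 were higher in Paneth at each age and 3 lower, beside the 19.6% and 20.4% of all genes that were higher. The count filter ran over all 13 libraries. Receptors with almost no stem reads, such as Olfr354 and Olfr1349, were therefore compared only because of their Paneth reads, and nothing is read from that count.

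Age was compared within Paneth libraries, 4 young against 3 aged, a contrast that did not choose the genes. None of the 10 passed in edgeR (quasi-likelihood, Benjamini-Hochberg adjusted over 14106 genes), where 0.0142% of the genes (2) did. Of the 10, 9 had lower fitted levels in aged libraries and Nkx2-1 a higher one, and the median log2 change of the 10 was -1.19 beside -0.002 over all genes. The log2 change was -1.53 ± 0.57 (SE) for Xpnpep2 (adjusted p = 0.555), with a mean of 5004 ± 2734 CPM (SD, n = 4) in the young group and of 1742 ± 555 CPM (SD, n = 3) in the aged. For Sox2 it was -1.22 ± 0.47 (adjusted p = 0.558, edgeR), from 258 ± 131 CPM (SD, n = 4) in the young to 111 ± 47.1 CPM (SD, n = 3) in the aged group. Olfr1243 had -1.17 ± 0.42 and Ankrd63 -1.66 ± 0.83, and the smallest adjusted p of the 10 was 0.536 for Olfr1243. Nkx6-1 (-0.48 ± 0.54), Cabp1 (-0.42 ± 0.38) and Nkx2-1 (0.23 ± 0.27) lay closest to 0. At an unadjusted p under 0.05, 5 of the 10 were lower (Xpnpep2, Sox2, Ptchd1, Ankrd2 and Olfr1243), beside 4.52% of all genes lower at that level. Xpnpep2 was the 1 gene of the 10 whose young and aged Paneth libraries did not overlap, with the aged ones lower, as they were without overlap for 3.85% of the genes tested.

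The age values depend on single libraries and on the scaling. None of the 10 had an unadjusted p under 0.05 without young Paneth 2, without aged Paneth 2, without aged Paneth 3, by library totals or with the replicate number as a block. The median log2 change of the 10 was then -0.74, -0.98, -1.11, -0.51 and -1.08, in that order. The share of the 3 loci averaged 51.9% ± 9.99 (SD, n = 4) in young and 32.2% ± 8.38 (SD, n = 3) in aged Paneth libraries, and the mean log2 level of the enterocyte markers was 7.76 ± 1.43 (SD, n = 4) in young and 9.41 ± 1.19 (SD, n = 3) in aged, with none of the 20 passing the test. The mean log2 level of the Paneth markers was 7.99 ± 1.23 (SD, n = 4) in young and 5.73 ± 1.13 (SD, n = 3) in aged libraries; their median log2 change was -1.66 and 1 of 24 passed as lower, and the 8 goblet markers had a median of -1.40 with none passing. The part of these measures in the age values was not tested. By library totals, which shift the median of all genes by 0.57, Nkx6-1 and Cabp1 turned to 0.15 and 0.21, and 7 of the 10 stayed negative. With limma-voom and sample weights 5 of the 10 passed as lower (Xpnpep2, Ptchd1, Olfr1243, Sox2 and Ankrd2, adjusted p from 0.0186 to 0.0359), where 9.31% of all genes passed as lower.

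**Figure D4:**
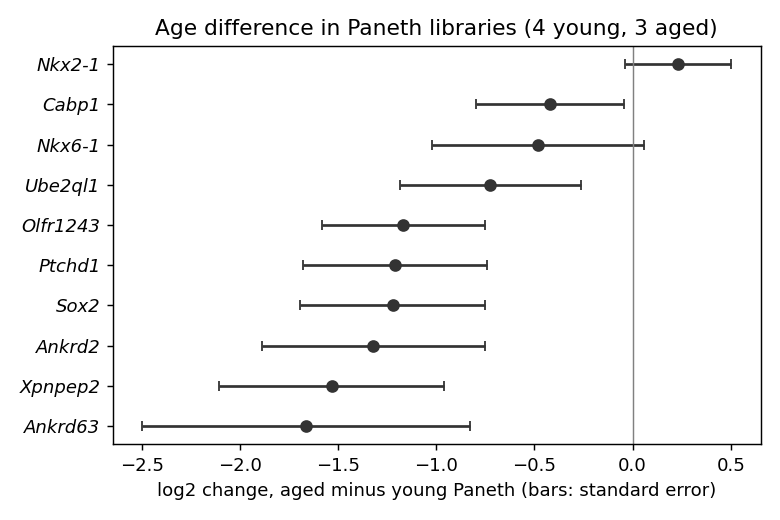
log2 change of each gene, aged minus young Paneth libraries, from the edgeR fit with TMM scaling; bars are standard errors. The points run from -1.66 (Ankrd63) to 0.23 (Nkx2-1) and none passed after adjustment.

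In stem cells 6 of the 10 genes had enough reads for the same comparison of 3 aged with 3 young libraries, and none passed; 0% of 17701 genes did in edgeR's quasi-likelihood test, with 1477 at an unadjusted p under 0.05. Sox2 had the lowest adjusted p of the 6, 0.585, with 0.324 ± 0.149 CPM (SD, n = 3) in young and 0.763 ± 0.0541 CPM (SD, n = 3) in aged stem cells and a log2 change of 1.12. Its direction was thus opposite to that in Paneth libraries, on 2 to 19 reads a library; the difference between the cell types was not tested. Without young stem 1, 1332 of 18275 genes passed in stem cells but still none of the 6. Xpnpep2 then had the lowest adjusted p of the 6, 0.0840 in edgeR's test, with a log2 change of 0.72. In Paneth libraries the log2 change of Xpnpep2 was -1.53. Sox2 had a log2 change of 0.95 without young stem 1 (adjusted p = 0.348, edgeR).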

How the data were processed

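RNA-seq of 7 Paneth and 6 stem cell libraries was used, with groups taken from the labels. The authors deposited a table per library of 36186 rows whose value column is headed FPKM, but these deposited values are estimated counts of reads by their form: of the values under 20, a share of 69.8% to 77.5% per library is whole within 0.001, which scaling by length would not leave. Per the submitters' processing notes, mm10 and DESeq are named with no role given, the aligner and counting tool being not given in the sources used here. All rows sharing one Entrez ID were summed to 35791 genes and rounded to whole numbers; 27 symbols turned into dates were restored.

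Tests were edgeR 4.0.16 quasi-likelihood fits (TMM, filterByExpr, robust) in R 4.3.3, with Benjamini-Hochberg adjustment over all genes and a threshold of 0.05; SE is the absolute log2 change over the square root of F. Alternatives used DESeq2 1.42.0, limma 3.58.1, other scalings and filters, a replicate block and left-out libraries. On simulated counts of 14106 genes the Paneth age fit recovered 3% of 100 genes changed by a fold of 2 and 55% of 100 changed by a fold of 4. Correlations used Python 3.11.15. Gene features and promoters came from GENCODE and RefSeq (GRCm38), matched by Entrez ID or symbol for all 10 genes.

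The genes and lists were chosen with earlier results of these data known. Named besides the 10 are annotated neighbours, up to 4 genes with the highest Paneth mean per list, the 2 genes most correlated with each member and check genes for the cell types; Gsc, Zic5 and Apoa4 were named after their values were seen.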

Additional observations from a re-analysis of the deposited data

Results flagged for a closer look

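Xpnpep2 in young Paneth 2 stood apart from the other young Paneth libraries, with 9041 CPM against 4008, 2977 and 3991 CPM. Its gap to the nearest library only narrowly exceeded Dixon's 95% critical value for 4 samples on this TMM scale, where young Paneth 2 had a factor of 0.412. The flag was raised on this scale alone and was not examined by library totals. Over the 7 Paneth libraries Xpnpep2 spanned 7.36 times on this scale and 3.02 times by library totals. Chance flags about 1 in 20 groups, and 10 genes were examined in the 4 young Paneth libraries, the one group large enough.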

How the results depend on the processing

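The number of genes passing for age in Paneth libraries, 2, was 12 by library totals, 11 with no count filter, 5 without the 3 loci, 47 with all 13 libraries in one fit, 114 with DESeq2 and 2528 with limma-voom, and 0 to 20 with a library left out; the cause was not tested. Of the 10 genes, 5 passed with limma-voom and 0 in all other age fits, each left-out library included. Replicate numbers did not pair the libraries (r of deviations between -0.41 and -0.04 for 3 numbers), and with the replicate block 0 genes passed. Genes higher in Paneth than in stem numbered 1071 (young) and 1798 (aged) by library totals, against 3323 and 3452. Against the share of the 3 loci, 0 to 7 of the genes passed with a library left out, 0 without aged Paneth 3 and 3 without young Paneth 2, where 6 libraries limit the p that can be reached. Against Paneth markers 0 to 2 passed and against enterocyte markers 0 to 7, both highest without young Paneth 4, and by library totals 3 passed with enterocyte markers. By library totals Nkx6-1 and Cabp1 had age changes of 0.15 and 0.21, and r of Cabp1 was -0.38 with Paneth markers, 0.25 with enterocyte markers and -0.13 with the 3 loci; with a library left out its r with Paneth markers ran from -0.15 (without aged Paneth 2) to 0.56. Leaving out young stem 1 was chosen after seeing the data. The low read numbers in stem cells, down to 0, limit any statement on age there.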
